A study of Heterocephalus glaber and Mus musculus with 9 samples.

Results

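Solute carriers are membrane proteins that move small molecules and ions across the plasma membrane and the membranes of organelles. The genes described here are those whose symbol begins with Slc and a number, without the mitochondrial Slc25a family, the glucose carriers of the Slc2a family, and the iron carriers Slc40a1 and Slc11a1. A gene was included if its normalized count averaged at least 10 over all 9 spleens. The members were thus chosen by their symbol and their measured mean, which left 189 of 239 genes with such a symbol, out of a table of 12946 genes, and the 189 genes fell into 45 families by the number in their symbol. The mean was 10.1 for Slc47a1, just inside the limit, and 9.88 for Slc39a2, just outside it.

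Spleens of naked mole-rats (NM-Rs, Heterocephalus glaber) were compared with spleens of wild-type C57Bl/6N mice by RNA sequencing of bulk tissue. NM-Rs had been divided into animals with a small spleen (ssNM-R) and animals with an enlarged spleen (lsNM-R), all under normal housekeeping conditions and untreated. There were 3 spleens per group, each from a different animal. The mice were males aged 2 months, the ssNM-Rs were males aged 30, 26 and 23 months (animals 2, 3 and 6), and the lsNM-Rs were a male aged 24 months, a female aged 29 months and a male aged 23 months (animals 1, 4 and 5). Species, age, housing, genome and gene models all changed together between mice and NM-Rs and cannot be told apart. In bulk tissue, fewer cells of a type and less RNA per cell cannot be told apart either.

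The families are numbered by sequence likeness, and a family often carries related substrates. Amino acid carriers supply protein synthesis and glutathione, chloride and bicarbonate exchangers and proton exchangers set pH and cell volume, and zinc, copper and magnesium carriers set the metal content of the cytosol and organelles. Carriers of nucleotide sugars feed glycosylation in the Golgi apparatus. The spleen filters old red cells and houses lymphocytes, and in rodents it also makes red cells. Red cell precursors depend on the anion exchanger Slc4a1, the most abundant carrier protein of the red cell membrane, on the glycine carrier Slc6a9, and on the iron carrier Slc11a2.

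The libraries held 7815326 to 18387599 reads. Among NM-Rs, ssNM-R 2, ssNM-R 3 and lsNM-R 1 were shallow (at most 8985705 reads) and the other 3 were deep (at least 16883689 reads). Both depths occurred in both cohorts. Marker genes differed between the species: the summed normalized count of 7 erythroid markers was 15329 to 34583 in mice, 78091 to 115571 in ssNM-Rs and 75761 to 117834 in lsNM-Rs, while that of 5 B cell markers was 33922 to 36674 in mice, 1422 to 2554 in ssNM-Rs and 1723 to 3758 in lsNM-Rs. All 7 erythroid markers were higher and all 5 B cell markers lower in NM-Rs. In addition, 4 granulocyte markers (2182 to 2792 in mice, 12426 to 17654 in NM-Rs) were all higher, 4 T cell markers (3376 to 3927 in mice, 1316 to 2804 in NM-Rs) were all lower, and of 5 macrophage markers (33248 to 41281 in mice, 23100.1 to 43442 in NM-Rs) 1 was higher and 3 were lower. Mouse 1 was the lowest mouse for all 7 erythroid markers. Markers of liver reached 2452 in ssNM-R 6 and 760.0 in lsNM-R 5, against 79.3 to 318 in the other 7 spleens. The part of these differences in the values of the solute carriers was not tested. Values given without mouse 1 show the weight of that spleen and do not test it either, since the marker sums of the other mice still lay apart from those of NM-Rs for erythroid and B cell markers.

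NM-R spleens differed from mouse spleens in most solute carriers, in both directions. Of the 189 genes, 78 were higher and 83 lower in NM-Rs than in mice (mean of both cohorts; adjusted p under 0.05 in limma, adjusted over all genes), and 28 were not called. These 41.3% and 43.9% stand beside 39.7% of all genes that were higher and 38.8% that were lower, or 40.7% and 39.9% of the genes with a mean of at least 10. The share of solute carriers called was thus near that of the table. Their median log2 fold change was -0.09, against 0.01 over all genes. The 3 mouse values and the 6 NM-R values did not overlap for 152 of the solute carriers (75 above, 77 below), and for 72.6% of all genes. In ssNM-Rs alone 75 were higher and 83 lower than in mice (38.0% and 37.5% of all genes), and in lsNM-Rs alone 76 were higher and 77 lower (38.1% and 37.0% of all genes). Both comparisons share the 3 mice.

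The limit on the mean let in genes that were low in a single species, which favours genes that differ. There were 23 genes with a mean under 10 in mice, of which 22 were higher in NM-Rs, and 11 with a mean under 10 in NM-Rs, all of which were lower. Of the other 155, which had a mean of at least 10 in both species, 56 were higher, 72 lower and 27 not called. The share of all genes under this limit in both species was not computed. Whether lower genes were more frequent among these carriers than in the table was therefore not tested. The fitted change is on the scale log2(normalized count + 1), which understates the change of low genes. The counts are not divided by gene length, so levels are compared between spleens and not between genes.

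**Figure D1:**
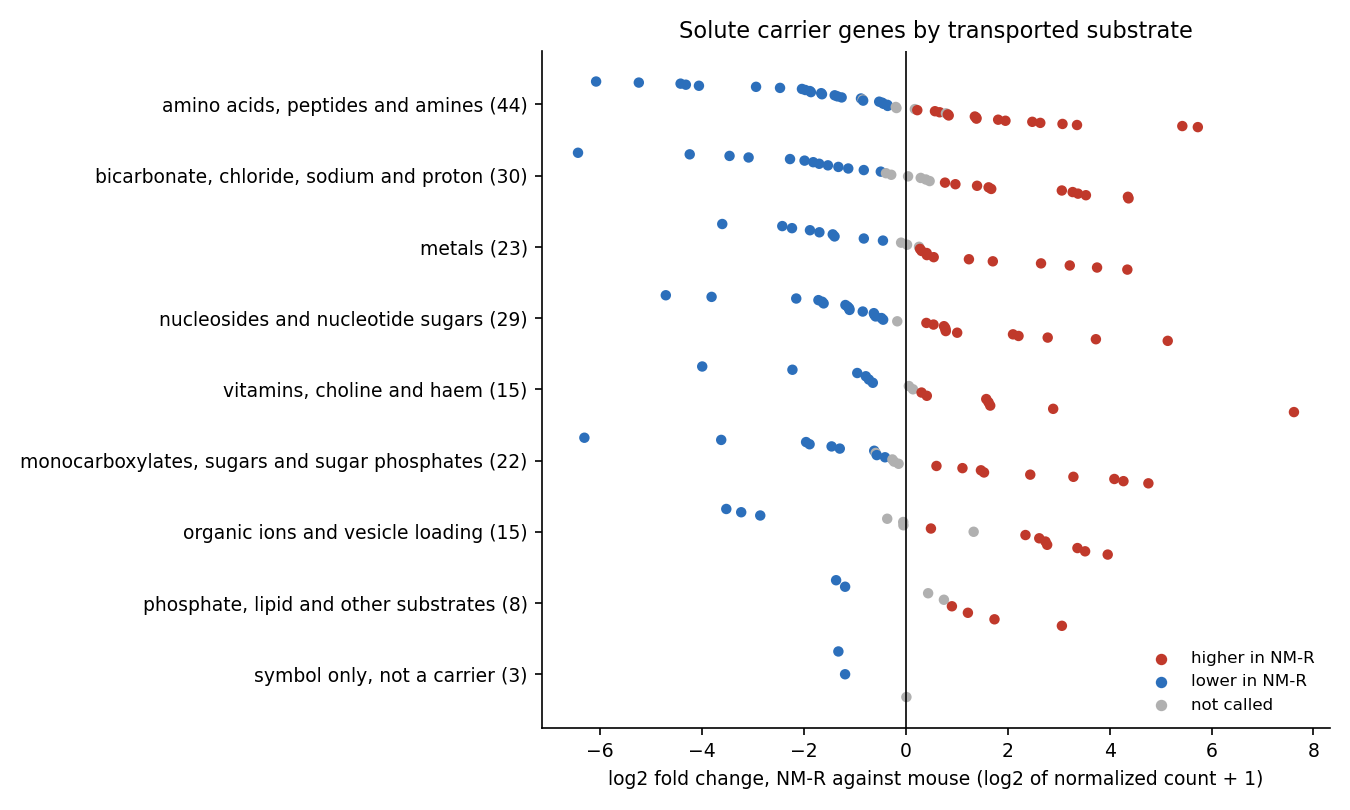
Log2 fold change of each of the 189 genes, NM-R (6 spleens) against mouse (3 spleens), by its known or likely substrate, in groups drawn up by hand with the number of genes in brackets. Each point is a gene, red if higher, blue if lower and grey if not called; every substrate group of carriers held genes on both sides of 0.

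Of 26 families with at least 3 genes, 21 held both higher and lower genes. Of all genes with a mean of at least 10, 40.7% were higher and 39.9% lower, so both directions were frequent in the table as a whole. No family, substrate group or list by place in the cell was tested against these shares. The Slc5 family had 3 genes higher and 1 not called. Among the higher genes, Slc5a1 and Slc5a10 had a mean under 10 in mice. Such genes could pass the limit on the mean only with higher values in NM-Rs. Slc5a6, the remaining higher gene, had a mean of at least 10 in both species. The families Slc12 (4 lower, 1 not called), Slc15 (3 lower), Slc19 (1 lower, 2 not called) and Slc44 (3 lower) had lower genes and no higher ones. In the Slc44 family, Slc44a5 had a mean under 10 in NM-Rs and could pass the limit only with higher values in mice. The largest family, Slc35, which carries nucleotide sugars, had 9 genes higher, 13 lower and 1 not called.

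**Figure D2:**
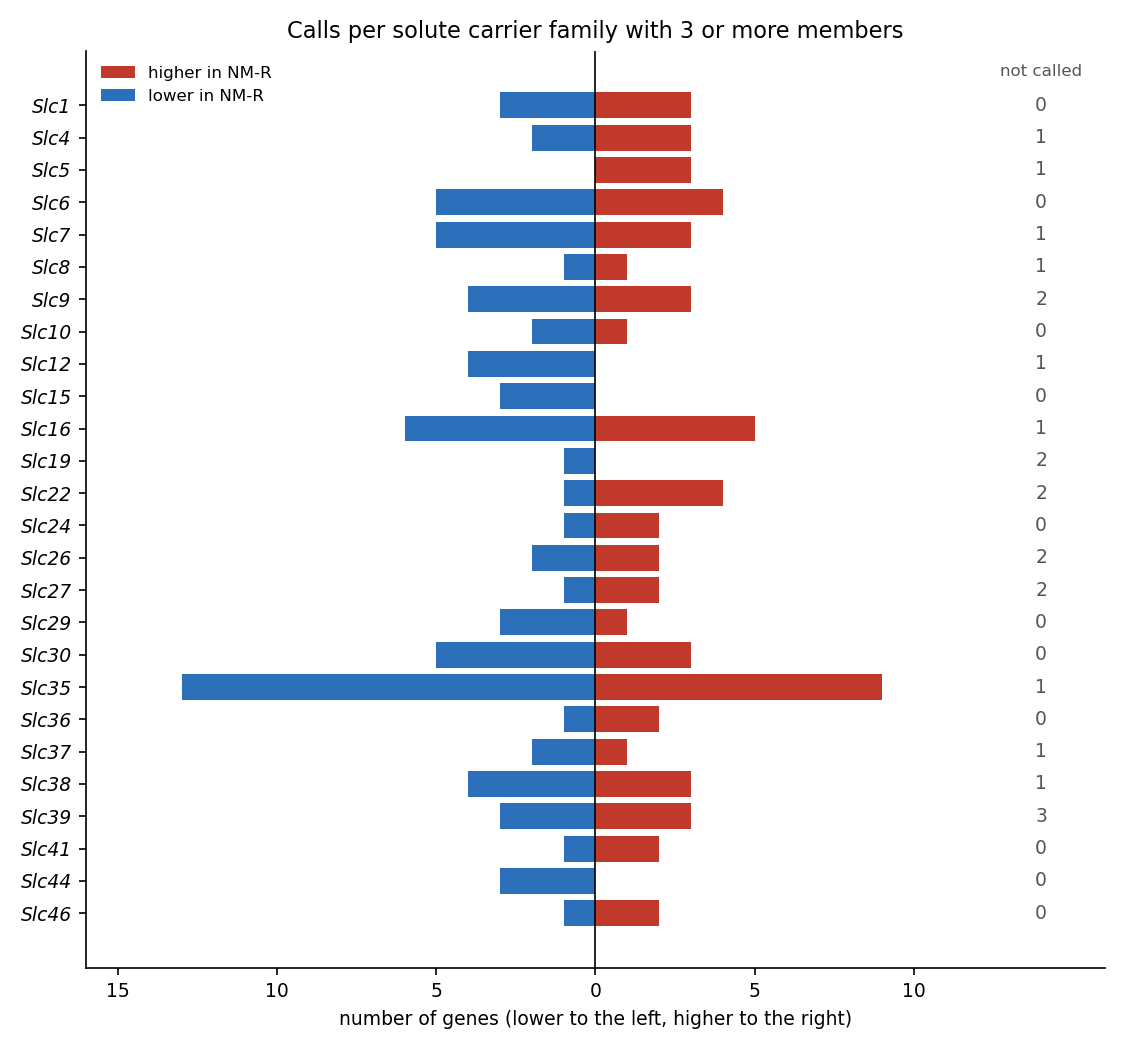
Number of genes called lower (blue, to the left) and higher (red, to the right) in NM-Rs than in mice for the 26 families with at least 3 genes, with the number not called at the right edge. Slc7 includes Slc7a6os, and Slc9 includes Slc9a3r1 and Slc9a3r2, which are not carriers; bars on both sides of 0 are seen in 21 families.

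Carriers of amino acids, peptides and amines formed the largest group, with 16 of 44 genes higher, 23 lower and 5 not called (median log2 fold change -0.40). The shares were 36.4% higher and 52.3% lower, against 40.7% and 39.9% of all genes with a mean of at least 10. The difference was not tested. Slc6a9, the glycine carrier GlyT1, was among the higher genes. Its normalized count was 369, 989 and 1277 in mice, 6160.4, 4879 and 4311 in ssNM-Rs, and 4627, 4962 and 4308 in lsNM-Rs (log2 fold change 2.64 ± 0.32 SE, adjusted p = 3.36e-05). All 6 NM-R spleens lay above the mice, and mouse 1 was the lowest.

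Slc38a5, a carrier of glutamine and other neutral amino acids that was chosen after its values were seen, had 188, 592 and 871 in mice, 1564, 1389 and 1111 in ssNM-Rs, and 1068, 1180.4 and 872 in lsNM-Rs (log2 fold change 1.35 ± 0.39, adjusted p = 0.00928). Without mouse 1, the log2 fold change of Slc38a5 was 0.71 and stayed called (adjusted p = 0.00907). Slc43a1, a carrier of large neutral amino acids, was likewise low in mouse 1 (478, against 1677 and 2146) and did not pass the test (1074 to 2118 in NM-Rs, log2 fold change 0.18 ± 0.41, adjusted p = 0.703). Without mouse 1 its log2 fold change had the opposite sign (-0.49, adjusted p = 0.0792) and did not pass either.

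The heavy chain Slc3a2, also known as 4F2hc, brings several light chains of the Slc7 family to the cell surface. Slc3a2 itself differed little (2155, 2448 and 2598 in mice, 1629.9 to 2344 in NM-Rs, log2 fold change -0.36 ± 0.12, adjusted p = 0.0176), and this call was lost without mouse 2 (adjusted p = 0.0626) or mouse 3 (adjusted p = 0.0795). Its light chains went in opposite directions. Slc7a11, the cystine and glutamate exchanger that supplies cysteine for glutathione, had 469.6, 418 and 406 in mice, 17.8, 22.5 and 16.4 in ssNM-Rs, and 15.5, 32.4 and 23.2 in lsNM-Rs. The mean was 20.2-fold lower in NM-Rs (log2 fold change -4.32 ± 0.23, adjusted p = 1.06e-07), with no overlap. Slc7a6, an exchanger of cationic and neutral amino acids, was 3.61-fold lower (462 to 514 in mice, 93.5 to 193 in NM-Rs). Its close relative Slc7a7 was 2.62-fold higher, with 616 to 680.3 in mice and 1529 to 1790.3 in NM-Rs, and Slc7a8, a carrier of neutral amino acids, was 1.81-fold higher, with 537 to 739 in mice and 758 to 1362 in NM-Rs. These 3 genes did not overlap between the species either.

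The cationic amino acid carriers Slc7a1 and Slc7a2, which take up arginine and lysine without a heavy chain, also parted. Slc7a2 had 1579, 1227 and 977 in mice, 56.1, 49.5 and 44.9 in ssNM-Rs, and 80.5, 55.7 and 60.2 in lsNM-Rs, which was 21.8-fold lower in NM-Rs (log2 fold change -4.42 ± 0.18, adjusted p = 1.98e-08). Slc7a1 was 1.50-fold higher, with 1167 to 1257 in mice and 1450.3 to 2205 in NM-Rs.

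The glutamine carriers of the plasma membrane did not move alike. Slc38a1 had 3461, 3376 and 3009 in mice, 549.7, 643 and 301 in ssNM-Rs, and 895, 654 and 685 in lsNM-Rs (5.28-fold lower, log2 fold change -2.47 ± 0.21, adjusted p = 2.68e-06). Its relative Slc38a2 had 3182 to 3378 in mice and 2605 to 3370.0 in NM-Rs and did not pass the test (adjusted p = 0.0713). Slc1a5, a further carrier of glutamine, had 3204 to 4389.8 in mice and 2216 to 3583 in NM-Rs, with overlap (log2 fold change -0.36 ± 0.14, adjusted p = 0.033). Its call was lost without mouse 3 (adjusted p = 0.159) and in 6 other alternatives. It was also lost with animal number as a replicate block, a fit that leaves a single lsNM-R spleen in the comparison (log2 fold change -0.19).

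Slc6a6, the taurine carrier, was 3.18-fold lower, with 4775, 4138 and 3417 in mice, 1073, 1349.7 and 1306 in ssNM-Rs, and 1514, 1233 and 1289 in lsNM-Rs (log2 fold change -1.66 ± 0.13, adjusted p = 1.02e-06). Among carriers known from the nervous system, the glutamate carrier Slc1a2 was lower (108 to 145 in mice, 0 to 7.51 in NM-Rs), while the glutamate carrier Slc1a6 (0 to 7.02 in mice, 88.6 to 137 in NM-Rs) and the dopamine carrier Slc6a3 (a mean 10.8-fold higher, 147 to 281 in NM-Rs) were higher. A further glutamate carrier, Slc1a7, had 2 reads in the 3 mouse libraries together and 512 in the 6 NM-R libraries, a ratio of 110 with a counting interval of 30.4 to 905. The serotonin carrier Slc6a4, known from platelets as well, was 3.74-fold lower (221 to 279 in mice, 32.6 to 104 in NM-Rs). The peptide carrier Slc15a2 had 1256, 1249 and 537 in mice and 43.5 to 90.4 in NM-Rs, a 17.7-fold lower mean.

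**Figure D3:**
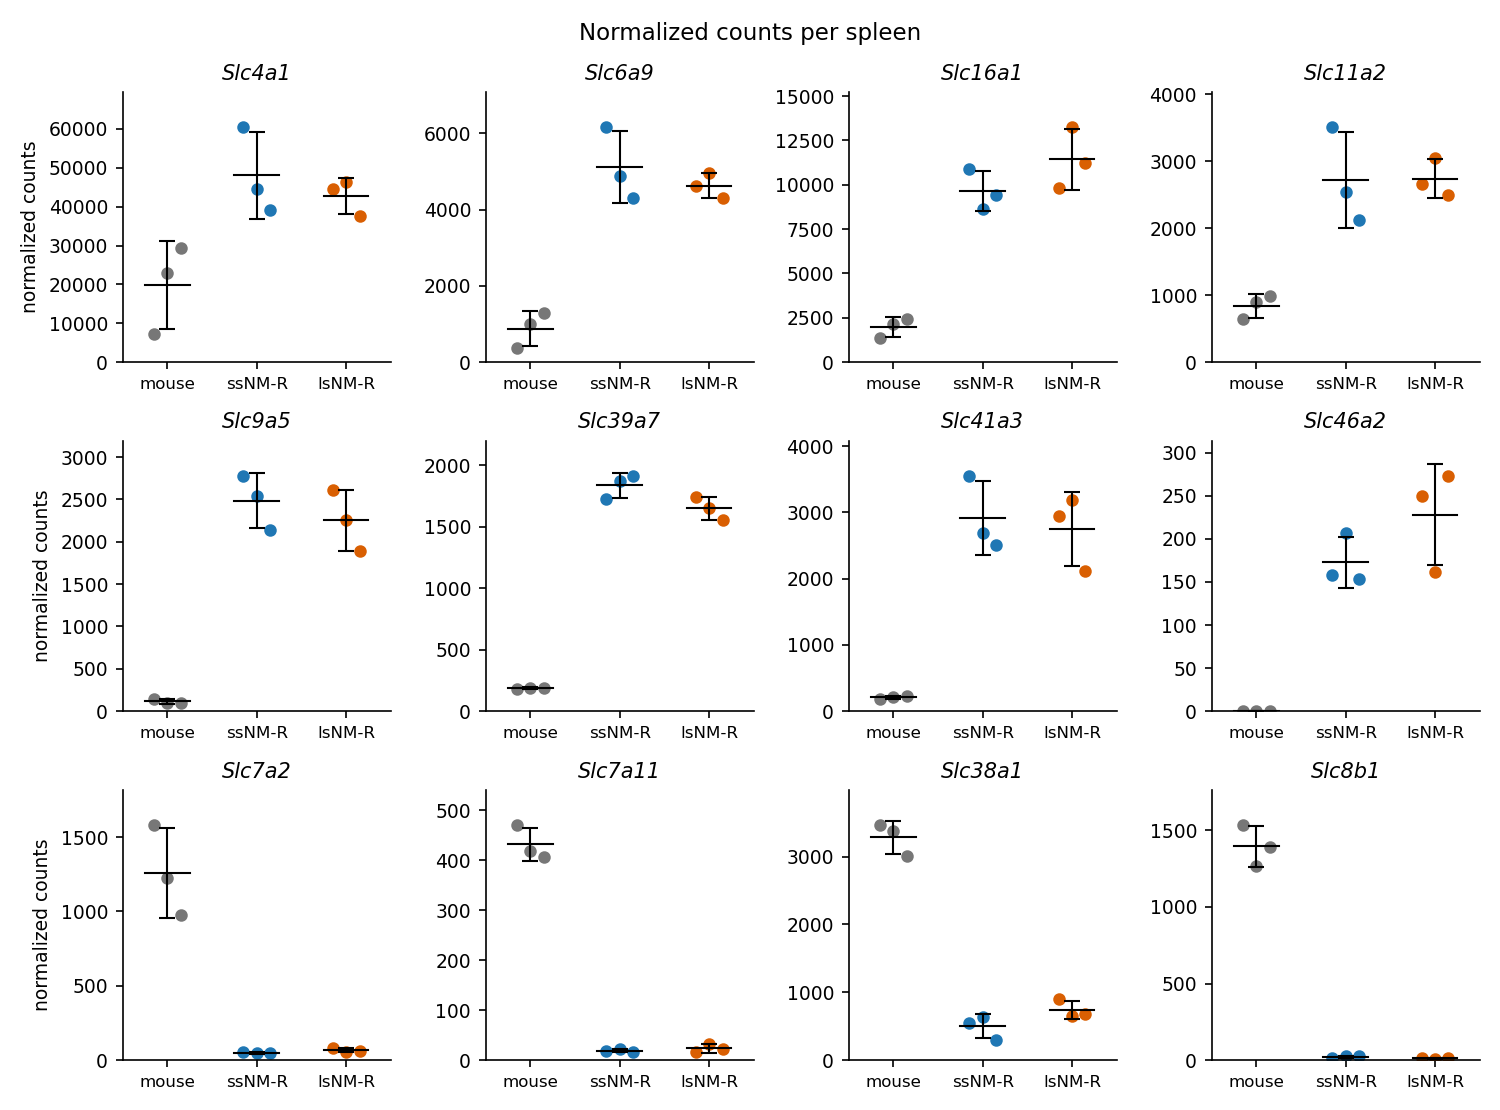
Normalized counts of 12 solute carriers in each spleen, on linear axes that start at 0. Points are the 3 spleens of each group (mouse grey, ssNM-R blue, lsNM-R orange), horizontal lines the group means and error bars the SD. In the upper and middle rows all NM-R spleens lie above the mice and in the lower row all lie below. Mouse 1, the leftmost grey point, is the lowest mouse for Slc4a1 (7373), Slc6a9 (369), Slc16a1 (1347), Slc11a2 (638), Slc39a7 (179) and Slc41a3 (181).

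Carriers of bicarbonate, chloride, sodium and protons had 11 of 30 genes higher, 13 lower and 6 not called (median log2 fold change -0.12). That is 36.7% higher and 43.3% lower, against 40.7% and 39.9% of all genes with a mean of at least 10. Slc4a1, the chloride and bicarbonate exchanger band 3 (mm9 chromosome 11, 102210138 to 102227517), had 7373, 22820.2 and 29247 in mice, 60439, 44575 and 39086 in ssNM-Rs, and 44488, 46234 and 37489 in lsNM-Rs. It was 2.29-fold higher in NM-Rs (log2 fold change 1.40 ± 0.38, adjusted p = 0.00672), without overlap. Without mouse 1 the log2 fold change was 0.80 (adjusted p = 0.0098). The related exchanger Slc4a3 was 10.1-fold higher (68.2 to 127 in mice, 397 to 1374 in NM-Rs), whereas the sodium and bicarbonate carriers Slc4a7 (935 to 1034 in mice, 252 to 548 in NM-Rs) and Slc4a8 (568 to 727 in mice, 141 to 377 in NM-Rs) were lower.

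The sodium and proton exchangers of the Slc9 family had 3 genes higher, 4 lower and 2 not called, counting 2 adaptor genes that share the symbol. Slc9a5 had 147, 95.7 and 102 in mice, 2775, 2540.2 and 2134 in ssNM-Rs, and 2612, 2258 and 1895 in lsNM-Rs (20.7-fold higher, log2 fold change 4.37 ± 0.16, adjusted p = 8.32e-09). The exchangers of internal membranes Slc9a7 (432 to 585 in mice, 91.0 to 246 in NM-Rs), Slc9a8 (1184 to 1436 in mice, 446 to 611 in NM-Rs) and Slc9a9 (649 to 943 in mice, 164 to 239.7 in NM-Rs) were all lower. The table also lists Slc9a3r1, an adaptor protein and not a carrier, which was lower (1467 to 1571 in mice, 500.5 to 713 in NM-Rs).

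Slc8b1, the sodium and calcium exchanger of mitochondria, had 1533, 1266 and 1391 in mice, 12.3, 27.0 and 25.3 in ssNM-Rs, and 14.1, 7.76 and 12.5 in lsNM-Rs (84.6-fold lower, log2 fold change -6.43 ± 0.28, adjusted p = 2.35e-08). Its relative of the plasma membrane, Slc8a1, was 1.98-fold higher (338 to 519 in mice, 489.8 to 975 in NM-Rs), with overlap through ssNM-R 6. The potassium and chloride carrier Slc12a7, which acts in the loss of cell volume, was 1.40-fold lower without overlap (1809 to 2150.3 in mice, 1099 to 1605 in NM-Rs). The sulfate carrier Slc26a2 was 8.12-fold lower, with 570.5 to 673 in mice and 32.2 to 105 in NM-Rs.

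Metal carriers had 11 of 23 genes higher, 9 lower and 3 not called (median log2 fold change 0.26). That is 47.8% higher and 39.1% lower, against 40.7% and 39.9% of all genes with a mean of at least 10. Slc11a2, the divalent metal carrier DMT1 that moves iron out of endosomes, had 638, 890.2 and 983 in mice, 3505, 2534 and 2114 in ssNM-Rs, and 2662, 3053 and 2492 in lsNM-Rs (3.26-fold higher, log2 fold change 1.71 ± 0.18, adjusted p = 9.91e-06). Without mouse 1 it was 1.52 on the log2 scale. The copper importer Slc31a1 was 1.33-fold higher (535 to 580.0 in mice, 703 to 835 in NM-Rs).

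The zinc carriers of the Slc30 family move zinc out of the cytosol, and those of the Slc39 family move it in. Counted by family number and not by the metal carried, Slc30 had 3 of 8 genes higher and 5 lower. Slc39 had 3 of 9 higher, 3 lower and 3 not called. Slc39a7, which releases zinc from the endoplasmic reticulum (mm9 chromosome 17, 34165212 to 34168635), had 179, 190.2 and 189.8 in mice, 1724, 1874 and 1912 in ssNM-Rs, and 1746, 1651 and 1559 in lsNM-Rs (9.37-fold higher, log2 fold change 3.22 ± 0.08, adjusted p = 7.3e-10). The spread within each group was small against this difference. Slc30a7, which loads zinc into the Golgi apparatus, moved the other way, with 1118, 1038 and 931 in mice, 176, 183 and 186 in ssNM-Rs, and 201, 185 and 213 in lsNM-Rs (5.39-fold lower, log2 fold change -2.42 ± 0.10, adjusted p = 1.72e-08).

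At the plasma membrane, the zinc exporter Slc30a1 was 1.47-fold higher (625 to 712 in mice, 863 to 1171 in NM-Rs), and the zinc importer Slc39a3 was 3.20-fold lower (476 to 495 in mice, 108 to 193 in NM-Rs). Slc39a8, a carrier of zinc and manganese, was 2.56-fold lower (177 to 238 in mice, 43.8 to 147 in NM-Rs). Slc39a5 had no read in any mouse and 9.01 to 37.3 in NM-Rs, which was at least 22.6-fold higher when the 3 mice together are set at a floor of 3 reads. Of the magnesium carriers, Slc41a3 was 13.7-fold higher (181, 217 and 223 in mice, 3547, 2693 and 2503 in ssNM-Rs, 2942, 3184 and 2121 in lsNM-Rs), Slc41a1 was 2.36-fold higher (691 to 878 in mice, 1571 to 2035 in NM-Rs), and Slc41a2 was lower (183 to 249 in mice, 85.3 to 162 in NM-Rs).

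Carriers of monocarboxylates, sugars and sugar phosphates had 9 of 22 genes higher, 9 lower and 4 not called (median log2 fold change -0.25). Each direction thus held 40.9%, against 40.7% higher and 39.9% lower among all genes with a mean of at least 10. Slc16a1, the lactate and pyruvate carrier MCT1 (mm9 chromosome 3, 104442591 to 104462385), had 1347, 2149 and 2449.7 in mice, 10878, 8653 and 9424 in ssNM-Rs, and 9837, 13246 and 11236 in lsNM-Rs (5.32-fold higher, log2 fold change 2.44 ± 0.19, adjusted p = 1.0e-06). Without mouse 1 it was 2.19 on the log2 scale. Its relatives Slc16a7 (MCT2, 91.2 to 119.6 in mice, 232 to 398 in NM-Rs) and Slc16a3 (MCT4, 199 to 251 in mice, 252 to 472 in NM-Rs) were 2.83-fold and 1.55-fold higher. In limma, Slc16a3 was not called for ssNM-Rs alone against mice (log2 fold change 0.32, adjusted p = 0.0847). For lsNM-Rs alone against mice it was called (log2 fold change 0.88, adjusted p = 0.000486).

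Slc16a5 had 106, 124 and 114 in mice but only 3 reads in all NM-R libraries together, for a ratio of 256 with a counting interval of 87.6 to 1242. Slc5a1, the sodium and glucose carrier SGLT1, had no read in mice and 16.3 to 38.3 in NM-Rs (at least 24.3-fold higher against the same floor). Slc37a4, which brings glucose 6-phosphate into the endoplasmic reticulum, was 2.18-fold higher (295 to 346 in mice, 569 to 868 in NM-Rs). Slc45a3 was 3.02-fold higher, with 789 to 875 in mice, and its highest NM-R values, 3668 and 3228, were those of ssNM-R 6 and lsNM-R 5. The sugar carrier Slc50a1 was 3.71-fold lower (902 to 950.2 in mice, 228 to 277 in NM-Rs).

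Carriers of nucleosides and nucleotide sugars had 12 of 29 genes higher, 16 lower and 1 not called (median log2 fold change -0.48). The shares were 41.4% higher and 55.2% lower, against 40.7% and 39.9% of all genes with a mean of at least 10. The difference was not tested. The nucleoside carrier Slc29a1 had 1642, 1619.6 and 1814 in mice, 2519, 2459 and 2212 in ssNM-Rs, and 2131, 2286 and 1869.9 in lsNM-Rs (1.33-fold higher, adjusted p = 0.00215). Slc29a4, its relative, was 14.7-fold lower (166 to 186 in mice, 6.84 to 16.9 in NM-Rs). Slc28a3, a sodium-driven nucleoside carrier, had 3 reads in the mouse libraries and 420 in the NM-R libraries, a ratio of 60.0 with a counting interval of 20.5 to 291.

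The carriers that load sugars for glycosylation did not move alike. Slc35a1, the carrier of CMP-sialic acid, was 1.72-fold higher (376 to 379 in mice, 589 to 691 in NM-Rs, log2 fold change 0.78 ± 0.09, adjusted p = 1.73e-05). Slc35a3, a carrier of UDP-N-acetylglucosamine, had 757, 726 and 696 in mice, 142, 131 and 154 in ssNM-Rs, and 193, 169 and 199 in lsNM-Rs (4.41-fold lower, log2 fold change -2.15 ± 0.11, adjusted p = 5.7e-08). Slc35c1, the carrier of GDP-fucose, was lower as well (901 to 1003 in mice, 246 to 365 in NM-Rs), as was the UDP-galactose carrier Slc35a2 (298 to 366 in mice, 186 to 247 in NM-Rs). The largest rises in this group were those of Slc35g2 (a mean 14.4-fold higher, 60.0 to 145 in NM-Rs) and Slc35f2 (56.6 to 76.3 in mice, 237 to 371 in NM-Rs) among genes with a mean of at least 100 in the higher species.

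Carriers of vitamins, choline and haem had 7 of 15 genes higher, 6 lower and 2 not called (median log2 fold change 0.14). That is 46.7% higher and 40% lower, against 40.7% and 39.9% of all genes with a mean of at least 10. The folate carriers differed in direction. Slc46a1, which takes up folate with protons, had 46.2, 45.7 and 39.8 in mice, 302, 381 and 408 in ssNM-Rs, and 306, 276 and 333 in lsNM-Rs (7.62-fold higher, log2 fold change 2.89 ± 0.14, adjusted p = 4.92e-08). Slc19a1, the reduced folate carrier, was 1.64-fold lower (264 to 318 in mice, 146 to 251 in NM-Rs).

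Slc46a2, a relative first known from the stroma of the thymus (mm9 chromosome 4, 59917998 to 59927928), had no read in any of the 3 mice, 159, 207 and 154 in ssNM-Rs, and 250.0, 161 and 273 in lsNM-Rs, at least 191-fold higher against the floor of 3 reads. The multivitamin carrier Slc5a6 was 3.12-fold higher (166 to 209.7 in mice, 477 to 713 in NM-Rs), and the riboflavin carrier Slc52a3 was 4.85-fold lower (34.8 to 45.2 in mice, 4.42 to 12.7 in NM-Rs). The choline carrier Slc44a1 (1009 to 1079.7 in mice, 449 to 701 in NM-Rs) and its relatives Slc44a2 (5488 to 6004 in mice, 3177 to 4251 in NM-Rs) and Slc44a5 (26.1 to 34.6 in mice, 0 to 3.00 in NM-Rs) were all lower.

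Carriers of organic ions and of vesicle contents had 8 of 15 genes higher, 3 lower and 4 not called (median log2 fold change 1.33). These 53.3% and 20% stand beside 40.7% and 39.9% of all genes with a mean of at least 10, and the difference was not tested. Slc22a17, a receptor for lipocalin 2, was 6.95-fold higher (158 to 194 in mice, 953 to 1567 in NM-Rs, log2 fold change 2.77 ± 0.16, adjusted p = 1.34e-07). Slc18b1, a vesicular carrier of polyamines, had 72.2, 52.2 and 38.8 in mice, 496, 501 and 1052 in ssNM-Rs, and 600.3, 396 and 866 in lsNM-Rs (12.0-fold higher), with its highest values again in ssNM-R 6 and lsNM-R 5. Both of these animals were 23 months old, and both libraries were deep and held the most liver markers. The other deep NM-R library, lsNM-R 4, had the lowest NM-R value, 396. Whether age, depth or the liver markers play a part was not tested. The organic cation carrier Slc22a3 was 9.60-fold lower (96.5 to 123 in mice, 6.84 to 19.0 in NM-Rs). Slc10a3, a relative of the bile acid carriers, was 11.6-fold lower (294 to 317 in mice, 19.5 to 33.9 in NM-Rs).

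The last group, carriers of phosphate, urea and fatty acids, had 4 of 8 genes higher, 2 lower and 2 not called (median log2 fold change 0.83). The shares were 50% higher and 25% lower, against 40.7% and 39.9% of all genes with a mean of at least 10. The difference was not tested. Slc14a1, the urea carrier of red cells and kidney vessels, had 891, 1204 and 1205 in mice, 3132, 2537 and 2233 in ssNM-Rs, and 2212, 2902 and 2339 in lsNM-Rs (2.33-fold higher, adjusted p = 2.83e-05). The phosphate carrier Slc20a2 was 2.29-fold lower (429 to 589 in mice, 188 to 254 in NM-Rs). Of the fatty acid carriers, Slc27a1 (419 to 503 in mice, 593 to 1074 in NM-Rs) and Slc27a3 (176 to 180.4 in mice, 510.4 to 818 in NM-Rs) were higher, and Slc27a4 was 2.59-fold lower (382 to 422 in mice, 143 to 162 in NM-Rs). Slc27a5, which acts in bile acid metabolism of the liver, did not pass the test (adjusted p = 0.521). Its highest values, 65.7 in ssNM-R 6 and 16.9 in lsNM-R 5, were in the spleens with the most liver markers, and the other 7 spleens held 1.00 to 8.70.

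By place in the cell, using lists drawn up after the values were seen, 5 of 11 carriers of lysosomes were higher and 6 lower in NM-Rs. Of all genes with a mean of at least 10, 40.7% were higher and 39.9% lower. Slc38a9, the lysosomal arginine carrier that signals to mTORC1, had 700.4, 614 and 666 in mice, 83.4, 70.6 and 72.0 in ssNM-Rs, and 72.0, 132 and 94.1 in lsNM-Rs (7.56-fold lower, log2 fold change -2.94 ± 0.18, adjusted p = 2.35e-07). Slc36a1, another lysosomal amino acid carrier, moved the other way, with 828 to 973 in mice and 1733 to 2868 in NM-Rs (2.65-fold higher), as did the cationic amino acid carrier Slc66a1 (375 to 435 in mice, 569 to 685 in NM-Rs).

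The lysosomal glutamine carrier Slc38a7 (328 to 381 in mice, 119 to 161 in NM-Rs) and the nucleoside carrier Slc29a3 (931 to 1185 in mice, 233 to 431 in NM-Rs) were lower. The haem carrier Slc48a1 had 2659, 2715 and 3034 in mice and 3457 to 4422 in NM-Rs (1.33-fold higher, adjusted p = 0.00145). The sialic acid carrier Slc17a5 was 1.41-fold higher (247 to 298 in mice, 323 to 472 in NM-Rs). The peptide and histidine carriers Slc15a4 (1290.4 to 1316 in mice, 583 to 955 in NM-Rs) and Slc15a3 (719 to 922 in mice, 502 to 691 in NM-Rs) were lower, as was Slc46a3 (1039 to 1133 in mice, 369 to 648 in NM-Rs). The call of Slc15a3 was lost without mouse 1 (adjusted p = 0.0538). Of 16 carriers of the Golgi apparatus and endoplasmic reticulum, 6 were higher, 9 lower and 1 not called.

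**Figure D4:**
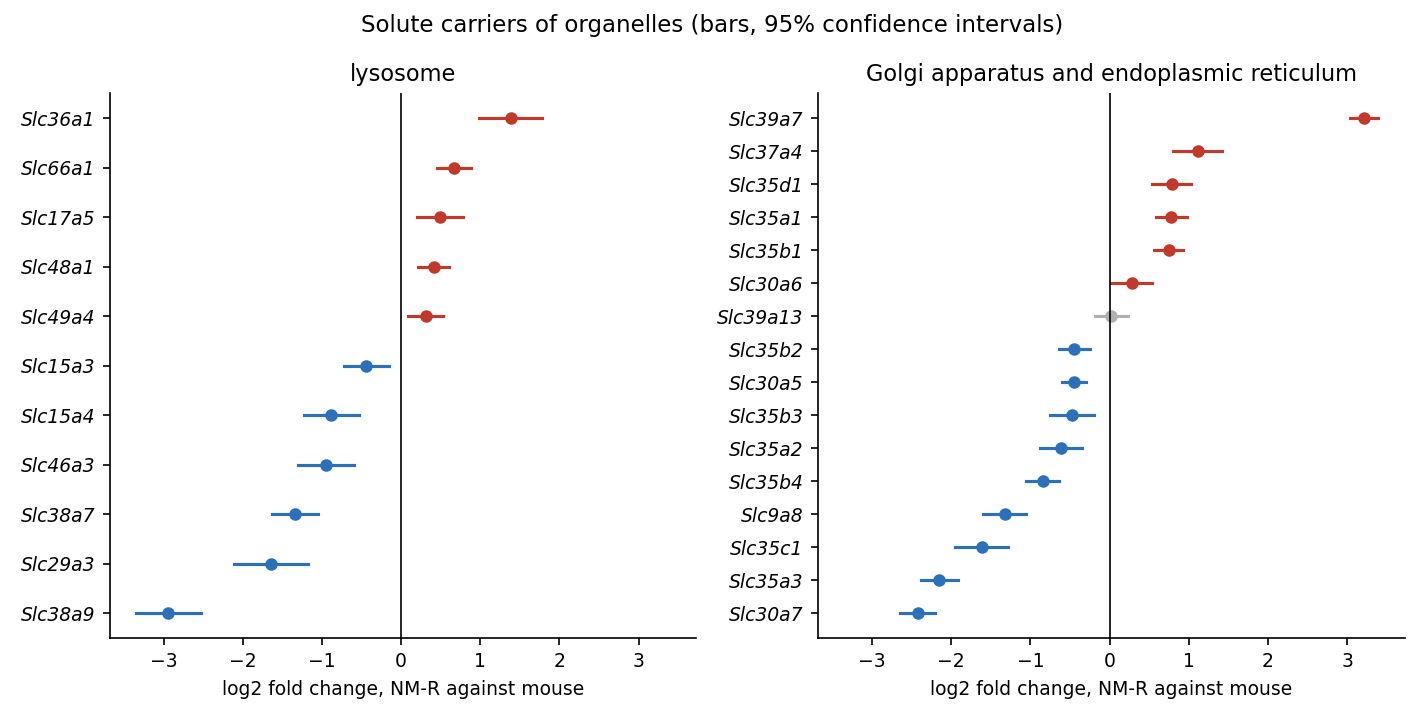
Log2 fold change, NM-R against mouse, of 11 carriers of lysosomes (left) and 16 carriers of the Golgi apparatus and endoplasmic reticulum (right), with 95% confidence intervals as bars. Red is higher, blue lower and grey not called; Slc38a9 (-2.94) and Slc30a7 (-2.42) were the lowest and Slc36a1 (1.38) and Slc39a7 (3.22) the highest of their panels.

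No solute carrier passed the threshold between lsNM-R and ssNM-R in limma. Over all genes, the share that passed in limma was 0.0%, and edgeR called 0 genes, while DESeq2 called 38 genes higher and 16 lower in lsNM-Rs among 11176 with an adjusted p, none of them among the 189. At an unadjusted p under 0.05 there were 14 of the 189 genes (12 higher and 2 lower in lsNM-Rs), against 8.79% of all genes. For the solute carriers, edgeR gave 0 past the threshold and 15 at an unadjusted p under 0.05, and DESeq2 gave 0 and 14. Over all alternatives the number at an unadjusted p under 0.05 ranged from 12 to 27, the highest with depth as a term in the fit, where 1067 of all genes were higher and 602 lower at that p. The 3 lsNM-R values and the 3 ssNM-R values did not overlap for 19 of the 189 (12 above, 7 below), against 13.1% of all genes. The median log2 difference of the members was -0.04, and the 95% confidence interval of a gene, not adjusted for the number of genes, reached a median of 0.48 to either side on this scale.

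The 5 genes with the smallest p are given as values. Slc16a3, which exports lactate, had 257, 309 and 252 in ssNM-Rs and 381, 472 and 361 in lsNM-Rs (log2 difference 0.56 ± 0.15, adjusted p = 0.442). The UDP-sugar carrier relative Slc35a5 had 297, 263 and 274 in ssNM-Rs and 369, 355 and 348 in lsNM-Rs (0.36 ± 0.10, adjusted p = 0.442). Slc7a6 had 114, 117 and 93.5 in ssNM-Rs and 193, 132 and 154 in lsNM-Rs (0.55 ± 0.17, adjusted p = 0.445). In these 3 genes, picked by their small p, the groups did not overlap.

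Slc5a3, a carrier of myo-inositol, had 129, 94.6 and 56.2 in ssNM-Rs and 182, 221 and 127 in lsNM-Rs (0.96 ± 0.30, adjusted p = 0.445), with overlap between ssNM-R 2 and lsNM-R 5. Slc16a5 rests on 1 read in each ssNM-R library and none in the lsNM-R libraries. With depth as a term in the fit, the smallest adjusted p of a solute carrier was 0.152, for Slc38a1 (549.7, 643 and 301 in ssNM-Rs, 895, 654 and 685 in lsNM-Rs).

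**Figure D5:**
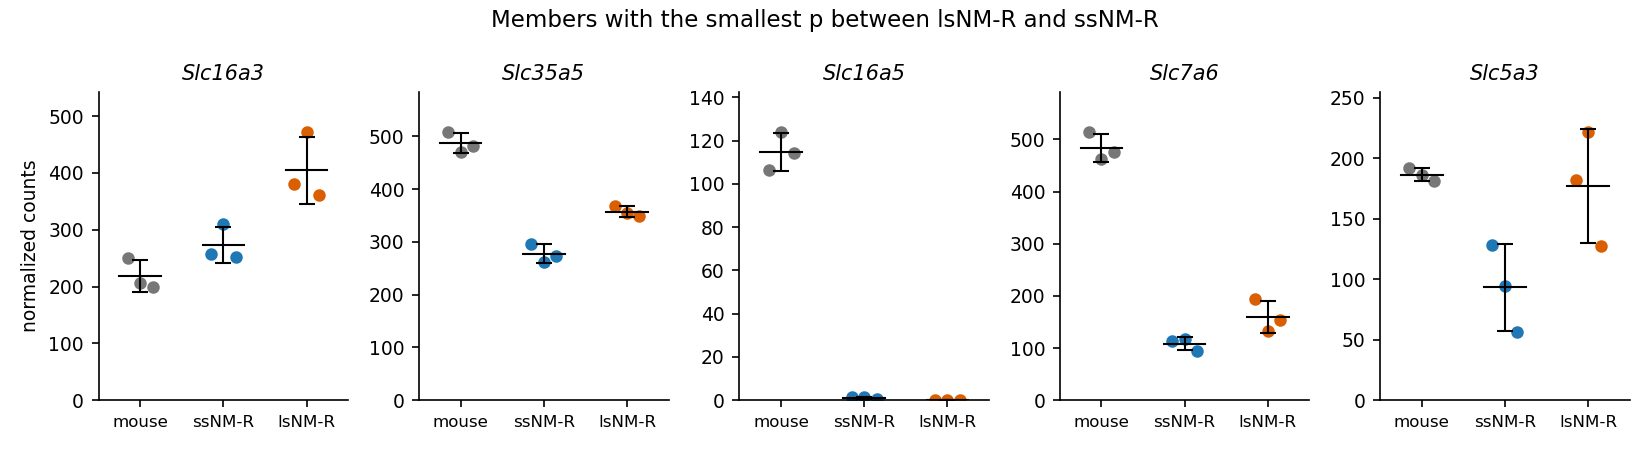
Normalized counts per spleen of the 5 genes with the smallest unadjusted p between lsNM-R and ssNM-R, on linear axes that start at 0, with group means (lines) and SD (error bars). None passed the threshold; lsNM-R values lie above ssNM-R values for Slc16a3, Slc35a5 and Slc7a6, and Slc16a5 lies near 0 in all NM-R spleens.

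The spread between animals is given as a description, without a test. The NM-R spleens span both cohorts, both sexes, several ages and both depths, while the mice were males of a single age. The groups are thus not alike, and no spread over all genes was computed. For the 108 genes with a mean of at least 100 in both species, the median coefficient of variation was 14.8% over the 6 NM-R spleens and 8.54% over the 3 mouse spleens. Among the 123 genes with a mean of at least 100 in NM-Rs it ranged from 3.70% for Slc30a5, a zinc carrier of the Golgi apparatus (1009 to 1120.0), to 44.7% for Slc30a4, a zinc carrier of vesicles. Slc30a4 had 133, 128 and 309 in ssNM-Rs and 138, 128 and 269 in lsNM-Rs, so that ssNM-R 6 and lsNM-R 5 stood above the other 4. These 2 animals held both of the highest or both of the lowest NM-R values in 10.6% and 15.3% of the solute carriers, and in 12.0% and 13.0% of the genes with a mean of at least 10.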

How the data were processed

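RNA of 9 spleens was sequenced (3 mouse, 3 ssNM-R, 3 lsNM-R). According to their methods, the authors aligned reads with STAR 2.5.3a to mm9 (mouse) or the NM-R genome, counted them per gene with htseq-count (HTSeq 0.10.0), gave NM-R genes mouse names through biomaRt and scaled each library by its DESeq2 size factor. The deposited signal values are thus counts per size factor, not divided by length, and whether strand was used in counting is not given in the sources used here. The labels and the methods name different RNA kits and sequencers. Genes that share reads with a close relative, an antisense or an overlapping gene are uncertain. Values were whole multiples of a step in every library (100% within a tolerance of 0.01), which gave the reads and the depth of each library (7815326 to 18387599).

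On the scale log2(normalized count + 1), limma 3.58.1 in R 4.3.3 fitted 1 mean per group over all 9 spleens, with a trended variance and 2-sided tests. Benjamini-Hochberg adjustment covered 12946 genes, at a threshold of 0.05. The script was tested on simulated data. Folds are ratios of group means, and counting intervals (95%, exact Poisson) and floors of 3 reads cover counting error only. edgeR 4.0.16 and DESeq2 1.42.0 on the recovered reads were alternatives, beside other scalings, pseudocounts of 0.5 and 5, filters and leaving out each spleen.

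The members, lists and tests were chosen with earlier results of these data known. The substrate groups were assigned by hand, mostly by family and for some genes singly. In each group the genes named were that with the highest mean, the 2 largest rises and 2 largest falls among called genes with a mean of at least 100 in the higher species, and textbook members; between the cohorts, the 5 smallest p; and the genes at the limit of the mean. Other genes named, and the lists by place in the cell, were chosen after their values were seen. Of 189 genes, 175 had a position in GENCODE vM1 (mm9). The textbook members Slc7a5, Slc12a2, Slc22a4 and Slc20a1 were not analysed here, and the values of some genes named by the rule are not reported here. Further marker lists were pancreas (1 of 3 genes higher, 1 lower), liver (1 of 4 higher, 1 lower), adipose tissue (2 of 4 higher, 0 lower) and kidney (0 of 2).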

Additional observations from a re-analysis of the deposited data

Results flagged for a closer look

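Of 62 solute carriers named by rule, 5 had a single NM-R spleen that stood apart from the other 5 NM-R spleens by Dixon's criterion, which chance alone meets in about 1 of 20 groups. Slc6a9 was 6160.4 in ssNM-R 2, against 4308 to 4962 in the others. Slc48a1 was 4422 in the same spleen, against 3457 to 3774. Slc19a1 was 251 in ssNM-R 3, against 146 to 182. In ssNM-R 6, Slc44a1 was 449, against 614 to 701, and Slc46a3 was 369, against 590.1 to 648. All 5 genes were called between NM-R and mouse in every alternative run.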

How the results depend on the processing

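The counts of solute carriers called stayed within 1.5 times their value in all 174 alternative values. Between NM-R and mouse they ranged from 73 to 82 higher and from 76 to 85 lower, between ssNM-R and mouse from 70 to 79 higher and 72 to 84 lower, and between lsNM-R and mouse from 66 to 79 higher and 64 to 80 lower. Between the cohorts 0 solute carriers passed in every alternative, with a smallest adjusted p of 0.122 (DESeq2) to 0.731 (without mouse 2). Leaving out each spleen in turn gave 73 to 82 higher and 76 to 83 lower in NM-R, 71 to 76 and 72 to 83 in ssNM-R, and 72 to 77 and 74 to 80 in lsNM-R. The fit to the compared groups alone has no value for NM-R against mouse, since all groups are in it.

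Of 1302 alternative values of 62 named genes, 1282 kept their direction and their side of the threshold, 12 lost the call and 8 gained it, and 0 reversed. The losses were those of Slc1a5 (8), Slc3a2 (3) and Slc15a3 (1), and the gains included those of Slc5a3 (4) and Slc38a2 (3); the causes were not tested. Mice and NM-Rs share only animal numbers: same-numbered pairs correlated at 0.033, -0.003 and -0.010. A fit with these numbers as a replicate block was among the alternatives. Numbers 4, 5 and 6 occur in a single library each, so lsNM-R 4, lsNM-R 5 and ssNM-R 6 were fitted exactly there. That fit compares the species through ssNM-R 2, ssNM-R 3 and lsNM-R 1 alone. A single mouse, mouse 1, moved the log2 fold change of Slc4a1 from 1.40 to 0.80. Low reads limit 12 genes in mice and 4 in NM-Rs, which had at most 3 reads in each library of the species.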
